A study of Rattus norvegicus with 17 samples.

Results

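The comparison of 11 with 1 mg/kg/d of dipentyl phthalate (DPeP), a plasticizer diester, set 3 fetal testis libraries of the higher dose against 3 of the lower, chosen by their dose labels out of the 17 libraries of the study. All 17 come from GD 21 fetuses of wild-type Sprague Dawley rats whose dams received the test substance by oral gavage on GD 17 to 21. Doses were vehicle (corn oil alone, 2.5 mL/kg), 1, 11, 100 and 300 mg/kg/d, with 3, 3, 3, 3 and 5 libraries. Both groups compared here therefore carried DPeP and the corn oil vehicle, and no unexposed animal entered the fit. A library holds RNA from 1 testis or from 2 testes of the same litter pooled. The labels do not say whether each library came from its own dam, so the p-values measure the spread between these libraries, which may share a source.

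The fetal rat testis makes its hormones in distinct cells. Leydig cells of the interstitium turn cholesterol into testosterone through the enzymes of the steroid pathway and secrete the peptide INSL3, which acts on testicular descent. Sertoli cells form the cords, secrete anti-Müllerian hormone and surround the germ cells, while peritubular myoid cells, endothelial cells and macrophages fill the rest of the organ. Phthalate diesters of mid-length side chains are known for lowering testosterone synthesis and Insl3 in the fetal rat testis at high doses, and the step from 1 to 11 mg/kg/d lies at the low end of this series.

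The 6 libraries held 14282274 to 18755376 counts in genes, with 14282274 to 15777640 at 1 mg/kg/d and 16441873 to 18755376 at 11 mg/kg/d, so the deeper group was the higher dose. Mitochondrial transcripts took 4.249 to 5.369% of the counts. Pearson correlations of log2 CPM (a gene's count as a share of its library's total, scaled alike in all 17 libraries) were 0.984 to 0.986 among the 1 mg/kg/d libraries, 0.983 to 0.987 among the 11 mg/kg/d libraries and 0.98 to 0.987 between the groups, across genes that are not independent replicates. The tissue label was borne out by its defining markers. Insl3 (Leydig cells) was at 352 to 979.9 CPM, Amh (Sertoli cells) at 1316 to 1756 CPM and Ddx4 (germ cells) at 38.5 to 74.2 CPM over the 6 libraries.

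Between 1 and 11 mg/kg/d, 5 of 16823 genes tested passed an adjusted p of 0.05 by edgeR's quasi-likelihood test. Gsta2, Slc7a8, Aox1 and Aebp1 fell (0.0238% of the genes tested were called lower) and Dusp27 rose (0.00594% called higher). The median log2 fold change over all genes, 11 minus 1 mg/kg/d throughout, was -0.002, with 49.4% of genes higher and 50.6% lower. The median standard error (SE) of a gene's log2 fold change was 0.137, and 147 genes differed by at least 1 on the log2 scale. An unadjusted p under 0.05 was reached by 1011 genes, 2.97% of those tested in the higher and 3.04% in the lower direction. Values of the 3 libraries of one dose lay wholly above those of the other for 6.1% of genes in the higher and 5.01% in the lower direction.

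**Figure D1:**
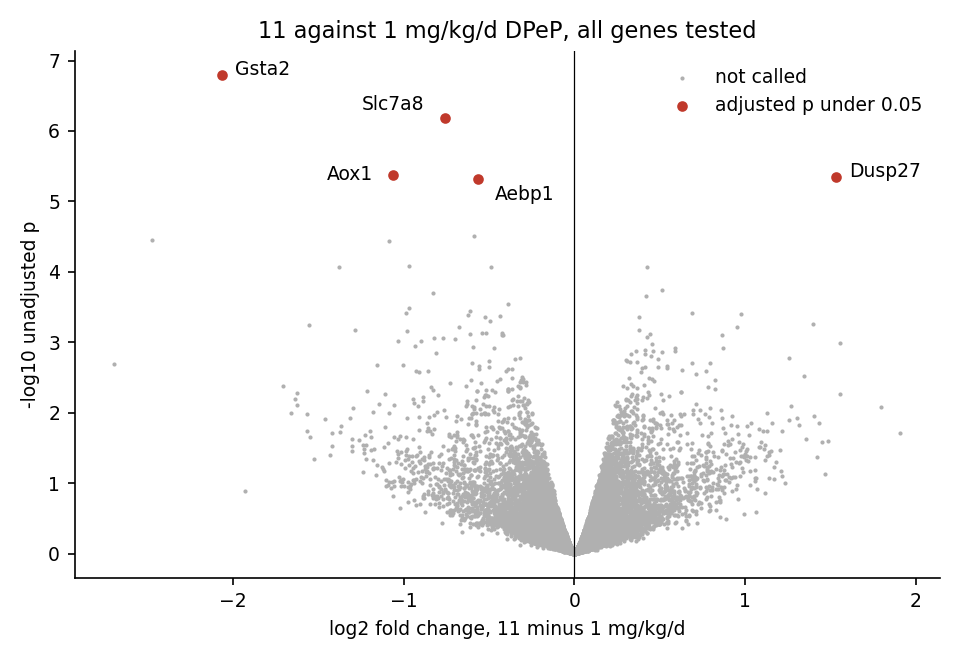
Each point is 1 of the 16823 genes tested; the x axis is the log2 fold change, 11 minus 1 mg/kg/d, and the y axis is -log10 of the unadjusted p of edgeR's quasi-likelihood test. The 5 genes past an adjusted p of 0.05 are in red, with Gsta2, Slc7a8, Aox1 and Aebp1 on the lower side and Dusp27 on the higher side.

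Gsta2 (ENSRNOG00000029861, chr8:79184322-79196798, minus strand) encodes an alpha-class glutathione S-transferase, an enzyme that joins glutathione to electrophiles. Its level was 15.1, 22.2 and 14.7 CPM at 1 mg/kg/d and 3.59, 4.64 and 4.14 CPM at 11 mg/kg/d, with replicates in the order 02, 09 and 10 and then 03, 16 and 17, as for each gene that follows. Gene spans are those of the deposited table, on build mRatBN7.2 per the submitters' processing notes. The groups did not overlap, and every 11 mg/kg/d library lay at less than 5 CPM. Means were 17.3 ± 4.22 and 4.12 ± 0.527 CPM (SD, n = 3 each). This is a 4.18-fold lower level at 11 mg/kg/d, or -2.06 on the log2 scale (SE 0.203, adjusted p = 0.00267 by edgeR's quasi-likelihood test). Gsta1, its close relative, was at 395, 281 and 359.6 CPM at 1 mg/kg/d and 241, 246 and 191 CPM at 11 mg/kg/d and did not pass (log2 fold change -0.61, adjusted p = 0.296). Reads of these alpha-class genes can be shared where their sequences are near identical, so the split of counts between them is uncertain.

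Slc7a8 (ENSRNOG00000014311, chr15:28183015-28242717, minus strand) encodes a neutral amino acid transporter of the cell membrane, LAT2, which works as the light chain of a dimer with the protein of Slc3a2. It was at 111, 111 and 112 CPM at 1 mg/kg/d and 67.8, 60.2 and 69.8 CPM at 11 mg/kg/d. The 3 libraries at the lower dose were nearly equal, and all 3 at the higher dose lay below them. The log2 fold change was -0.76 (SE 0.084, adjusted p = 0.00556). Slc3a2, looked up after its values were seen, was at 194, 179 and 177 CPM at 1 mg/kg/d and 145, 140.0 and 135 CPM at 11 mg/kg/d, without overlap, and did not pass (log2 fold change -0.39, adjusted p = 0.296).

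Aox1 (ENSRNOG00000015354, chr9:59579649-59658770, plus strand), the aldehyde oxidase of drug and aldehyde metabolism, was at 30.4, 25.4 and 27.4 CPM at 1 mg/kg/d and 12.6, 15.7 and 11.6 CPM at 11 mg/kg/d. The lowest library at 1 mg/kg/d stayed well above the highest at 11 mg/kg/d. The log2 fold change was -1.06 (SE 0.14, adjusted p = 0.0161).

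Aebp1 (ENSRNOG00000013720, chr14:80738892-80748877, plus strand) encodes an extracellular matrix protein with a carboxypeptidase-like domain. It was at 206, 206 and 214 CPM at 1 mg/kg/d and 142, 138 and 145 CPM at 11 mg/kg/d. Its fall was the smallest of the 4 but was set against a narrow spread, with means of 209 ± 4.7 and 141 ± 3.6 CPM (SD, n = 3 each). The log2 fold change was -0.56 (SE 0.075, adjusted p = 0.0161).

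Dusp27 (ENSRNOG00000003722, chr13:78349365-78378458, minus strand), also named Styxl2, encodes a protein of the dual-specificity phosphatase family known from striated muscle. It was at 4.5, 3.88 and 6.32 CPM at 1 mg/kg/d and 15.0, 15.6 and 12.2 CPM at 11 mg/kg/d, again without overlap. The log2 fold change was 1.54 (SE 0.204, adjusted p = 0.0161), a 2.90-fold higher level at 11 mg/kg/d.

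**Figure D2:**
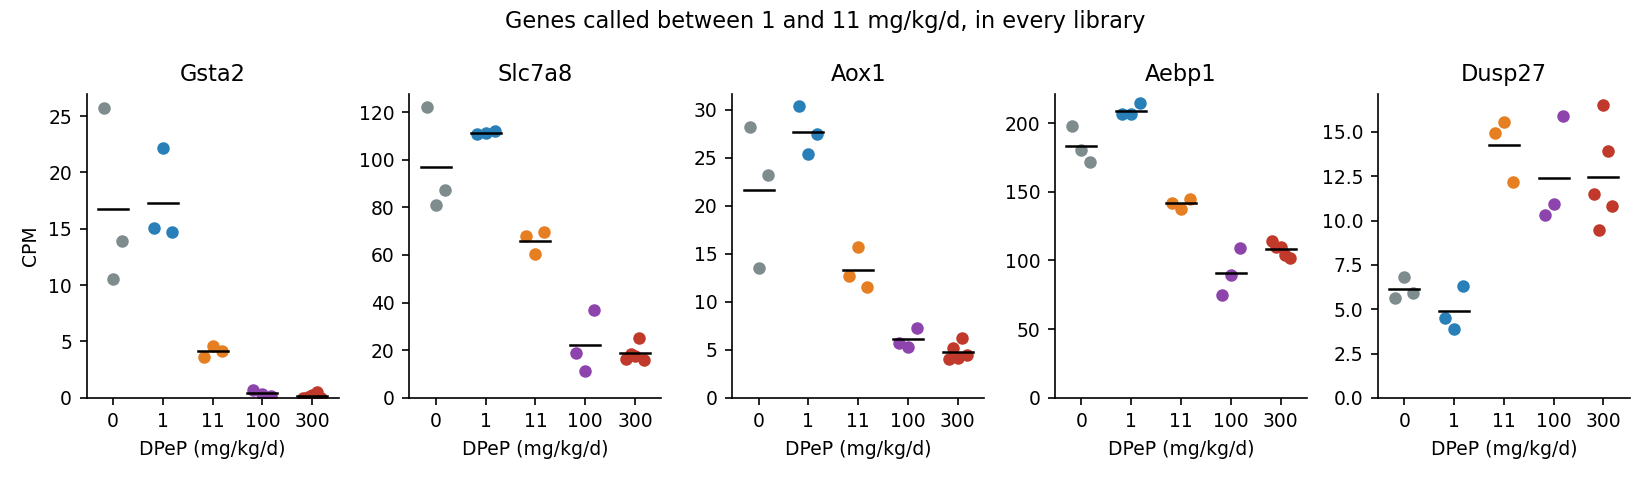
Level in CPM of the 5 called genes in each of the 17 libraries, by dose in mg/kg/d (0 is vehicle); points are libraries and bars the group means. Gsta2, Slc7a8, Aox1 and Aebp1 are lower in all 3 libraries at 11 than in all 3 at 1 mg/kg/d, and Dusp27 is higher.

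The same 5 genes were read in the vehicle and 300 mg/kg/d libraries, which share none with the pair compared above. In a separate fit of those 8 libraries, 442 of 17314 genes (2.55%) fell and 384 (2.22%) rose at 300 mg/kg/d. All 5 passed there, each in the direction it had between 1 and 11 mg/kg/d. The log2 fold changes, 300 mg/kg/d minus vehicle, were -6.63 for Gsta2 (adjusted p = 1.76e-06), -2.38 for Slc7a8 (adjusted p = 4.92e-07), -2.17 for Aox1 (adjusted p = 2.11e-05), -0.76 for Aebp1 (adjusted p = 1.48e-05) and 1.02 for Dusp27 (adjusted p = 0.00499).

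Vehicle levels put the 1 mg/kg/d group in place. Gsta2 was at 25.7, 10.5 and 13.9 CPM in vehicle replicates 01, 08 and 15, which spans the 1 mg/kg/d values, and Aox1 at 28.3, 13.6 and 23.3 CPM, of which 13.6 CPM lay within the 11 mg/kg/d range. Slc7a8 was at 122, 81.1 and 87.4 CPM and Aebp1 at 198, 181 and 172 CPM, all above every 11 mg/kg/d library. Dusp27 was at 5.65, 6.8 and 5.91 CPM in vehicle, below every 11 mg/kg/d library. At 100 mg/kg/d the means were 0.408 ± 0.24 for Gsta2, 22.4 ± 13.1 for Slc7a8, 6.08 ± 1.06 for Aox1, 90.9 ± 17.3 for Aebp1 and 12.4 ± 3.07 CPM for Dusp27 (SD, n = 3). At 300 mg/kg/d they were 0.162 ± 0.222, 18.7 ± 3.81, 4.8 ± 0.921, 108 ± 5.01 and 12.4 ± 2.81 CPM in the same order (SD, n = 5). Vehicle means were 16.7 ± 7.97 CPM for Gsta2, 96.9 ± 22.2 CPM for Slc7a8 and 21.7 ± 7.48 CPM for Aox1 (SD, n = 3), each below the mean at 1 mg/kg/d by less than the vehicle SD. From 1 mg/kg/d upward these 3 genes had lower means at each higher dose, although their values at 100 and 300 mg/kg/d overlapped. Aebp1 differed, with a vehicle mean of 183 ± 13.2 CPM (SD, n = 3) and 206, 206 and 214 CPM at 1 mg/kg/d. All its 1 mg/kg/d libraries lay above every vehicle library, and its mean was lower at 100 than at 300 mg/kg/d. The values of Dusp27 at 11, 100 and 300 mg/kg/d overlapped.

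The calls rest on few libraries. By edgeR, the count dropped to 1 (Dusp27) when all 17 libraries shared 1 estimate of the spread, to 3 with vehicle added, to 0 with the labels' sample code as a term (974 genes at an unadjusted p under 0.05) and to 0 without 11 mg/kg/d replicate 03 (1145 at an unadjusted p under 0.05). Without 1 mg/kg/d replicate 02, 09 or 10, 2 of the 5 remained called in each case, and without 11 mg/kg/d replicate 16 or 17, 3 and 5. The direction of the 5 changed in none of the 15 alternatives run. Because their groups do not overlap, neither leaving out a library nor comparing within a sample code could turn it, so this adds no support. Within a sample code the differences on the log2 CPM scale were -2.49 in code S447 and -1.67 in code S448 for Gsta2, -0.69 in code S447 and -0.88 in code S448 for Slc7a8, -1.06 in code S447 and -0.95 in code S448 for Aox1, -0.52 in code S447 and -0.58 in code S448 for Aebp1 and 1.77 in code S447 and 1.76 in code S448 for Dusp27. Of the 6 libraries, code S446 holds only 1 mg/kg/d replicate 10.

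Other features of the libraries also differed between 1 and 11 mg/kg/d. Endothelial markers summed to 686, 874 and 848 CPM at 1 mg/kg/d and 687, 706 and 629 CPM at 11 mg/kg/d, with 15 of 15 members lower, although replicate 02 overlapped the higher dose. Germ cell markers summed to 814, 799 and 729.8 CPM at 1 mg/kg/d and 915, 1077 and 939 CPM at 11 mg/kg/d, with 23 of 27 higher, and depth was higher in every 11 mg/kg/d library. Their part in the 5 calls was not tested.

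The promoters of the 4 genes that fell are printed because these genes fell in both comparisons, which share no library. Each is the 250 bases upstream of the RefSeq gene start on build GRCr8, 5′ to 3′ on the gene's strand, with capitals marking a GC box (GGGCGG on either strand) or the core of the antioxidant response element (TGACNNNGC on either strand). The regions are chr8:88077093-88077342 on the minus strand for Gsta2, chr15:32212716-32212965 on the minus strand for Slc7a8, chr9:67073641-67073890 on the plus strand for Aox1 and chr14:84952604-84952853 on the plus strand for Aebp1.
Gsta2: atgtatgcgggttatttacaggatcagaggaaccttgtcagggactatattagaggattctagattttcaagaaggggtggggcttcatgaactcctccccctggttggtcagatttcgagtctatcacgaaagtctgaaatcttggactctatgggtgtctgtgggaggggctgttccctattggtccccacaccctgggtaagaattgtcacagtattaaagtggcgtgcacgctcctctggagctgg
Slc7a8: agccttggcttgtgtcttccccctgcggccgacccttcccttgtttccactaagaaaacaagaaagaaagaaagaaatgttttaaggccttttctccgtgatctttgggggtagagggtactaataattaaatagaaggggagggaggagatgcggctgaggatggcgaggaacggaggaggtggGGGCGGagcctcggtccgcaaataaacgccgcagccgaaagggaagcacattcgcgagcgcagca
Aox1: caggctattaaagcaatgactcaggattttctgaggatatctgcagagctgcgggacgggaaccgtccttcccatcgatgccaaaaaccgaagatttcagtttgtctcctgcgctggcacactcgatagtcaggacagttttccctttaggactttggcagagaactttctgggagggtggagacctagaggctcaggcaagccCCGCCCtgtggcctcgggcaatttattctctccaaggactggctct
Aebp1: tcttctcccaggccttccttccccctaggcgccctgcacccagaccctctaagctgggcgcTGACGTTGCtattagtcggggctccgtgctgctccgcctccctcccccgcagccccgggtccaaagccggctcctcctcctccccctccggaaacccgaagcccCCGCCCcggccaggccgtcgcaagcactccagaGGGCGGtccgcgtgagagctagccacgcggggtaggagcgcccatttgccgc
A GC box lies 65 bases upstream of the start in Slc7a8, 46 in Aox1, and 85 and 52 in Aebp1. The Gsta2 window holds none, and 30.5% of all 33469 RefSeq rat promoter windows of that length hold at least 1. The antioxidant response core occurs once, 189 bases upstream in Aebp1, against 10.1% of all windows. None of the 4 windows holds the nuclear receptor half-site AGGTCA (14.1% of all), the steroidogenic factor site CAAGGTCA that contains it (1.33%) or TATAAA (12.9%). The Dusp27 window, searched under its synonym Styxl2, holds none of these 5 motifs. A match or its absence is a description of these letters only.

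At an adjusted p of 0.10 there were 8 genes, 1 higher and 7 lower, and the 3 added were Gpc4, Vnn3 and Mrap, each at 0.0766. Gpc4, a cell-surface heparan sulfate proteoglycan, was at 93.0, 76.9 and 86.3 CPM at 1 mg/kg/d and 55.5, 60.4 and 54.4 CPM at 11 mg/kg/d. Vnn3, a pantetheinase of the vanin family, was at 2.19, 1.8 and 2.93 CPM at 1 mg/kg/d and 0.425, 0.276 and 0.524 CPM at 11 mg/kg/d, a log2 fold change of -2.48. Mrap, the accessory protein of the ACTH receptor, was at 15.8, 11.7 and 12.4 CPM at 1 mg/kg/d and 6.87, 6.19 and 5.71 CPM at 11 mg/kg/d (log2 fold change -1.09). None of the 3 overlapped between doses, and all 3 fell at 300 mg/kg/d against vehicle, with log2 fold changes of -1.08, -6.01 and -3.32.

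Next by unadjusted p on the lower side were Pdyn, the opioid peptide precursor prodynorphin, Parp9 and Olfm2. Their log2 fold changes were -0.97, -0.49 and -1.38, each at an adjusted p of 0.121. Pdyn and Olfm2 fell at 300 mg/kg/d (-1.44 and -3.02), whereas Parp9 had 0.03 there (adjusted p = 0.961). Lefty2, a secreted inhibitor of Nodal signalling chosen after its values were seen, was at 5.75, 3.12 and 3.64 CPM at 1 mg/kg/d and 0.912, 1.33 and 1.99 CPM at 11 mg/kg/d (log2 fold change -1.55, adjusted p = 0.323) and fell at 300 mg/kg/d by 3.04 on the log2 scale.

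On the higher side, 9 genes followed Dusp27 by unadjusted p. Mov10l1, a helicase of piRNA biogenesis in germ cells, was at 117, 117 and 118 CPM at 1 mg/kg/d and 151, 161 and 159.7 CPM at 11 mg/kg/d (log2 fold change 0.43, adjusted p = 0.121). Fkbp6 and Mael, also of the piRNA pathway, had 0.38 and 0.44, and Dppa4, a gene of pluripotent and germ cells, had 0.51. The other 5 were Tuba3b (0.42), an alpha-tubulin whose counts may be shared with near-identical copies, Ass1 (0.98), the arginine synthesis enzyme, Slc7a14 (1.40), Sbno1 (0.43) and Nsun7 (1.55). None of these 9 passed an adjusted p of 0.05 in either comparison. At 300 mg/kg/d against vehicle all 9 had positive log2 fold changes, from 0.004 for Mael to 1.196 for Slc7a14, with adjusted p from 0.0961 to 0.987.

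Steroid and Leydig cell genes were read first as single genes. Insl3 was at 979.9, 833 and 770.5 CPM at 1 mg/kg/d and 670.1, 492 and 352 CPM at 11 mg/kg/d. The groups did not overlap, and 11 mg/kg/d replicate 17 was the lowest of the 6. The log2 fold change of -0.77 (95% interval -1.16 to -0.39) did not pass (adjusted p = 0.33). Cyp11a1, the side-chain cleavage enzyme that starts steroid synthesis, was at 1076, 949 and 849.9 CPM at 1 mg/kg/d and 778, 633 and 601 CPM at 11 mg/kg/d, also without overlap, with a log2 fold change of -0.52 (95% interval -0.77 to -0.26, adjusted p = 0.323). Lhcgr, the receptor for luteinizing hormone, was at 116, 96.4 and 80.5 CPM at 1 mg/kg/d and 78.9, 75.3 and 73.6 CPM at 11 mg/kg/d (log2 fold change -0.36, adjusted p = 0.647, and -0.22 without 1 mg/kg/d replicate 02).

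The groups overlapped for the next 5 genes. Star, which carries cholesterol into mitochondria, was at 564, 379 and 346 CPM at 1 mg/kg/d and 422, 379 and 397 CPM at 11 mg/kg/d. Its 95% interval of -0.42 to 0.21 around -0.11 excludes the -2.10 it had at 300 mg/kg/d, but that was taken against vehicle. In vehicle Star was at 550, 658 and 691 CPM, a range that only 1 mg/kg/d replicate 02 of the 6 libraries reached. Cyp17a1, which makes androgens from pregnane steroids, was at 1262, 917 and 800.3 CPM at 1 mg/kg/d and 831, 752 and 698 CPM at 11 mg/kg/d. Its log2 fold change was -0.39 (95% interval -0.69 to -0.08), and -0.18 without 1 mg/kg/d replicate 02. Its vehicle values of 1646, 1284 and 1590 CPM lay above all 6 libraries compared. Scarb1, the lipoprotein cholesterol receptor, had -0.17 (-0.52 to 0.19) and Hsd3b1, whose reads may be shared with close relatives, -0.19 (-0.54 to 0.16). Nr5a1, the steroidogenic transcription factor, had -0.11 (-0.29 to 0.08). In every one of these the adjusted p lay above 0.05. Leaving out 1 mg/kg/d replicate 02 turned Star to 0.14 and Scarb1 to 0.07, and leaving out 11 mg/kg/d replicate 17 turned Hsd3b1 to 0.01.

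**Figure D3:**
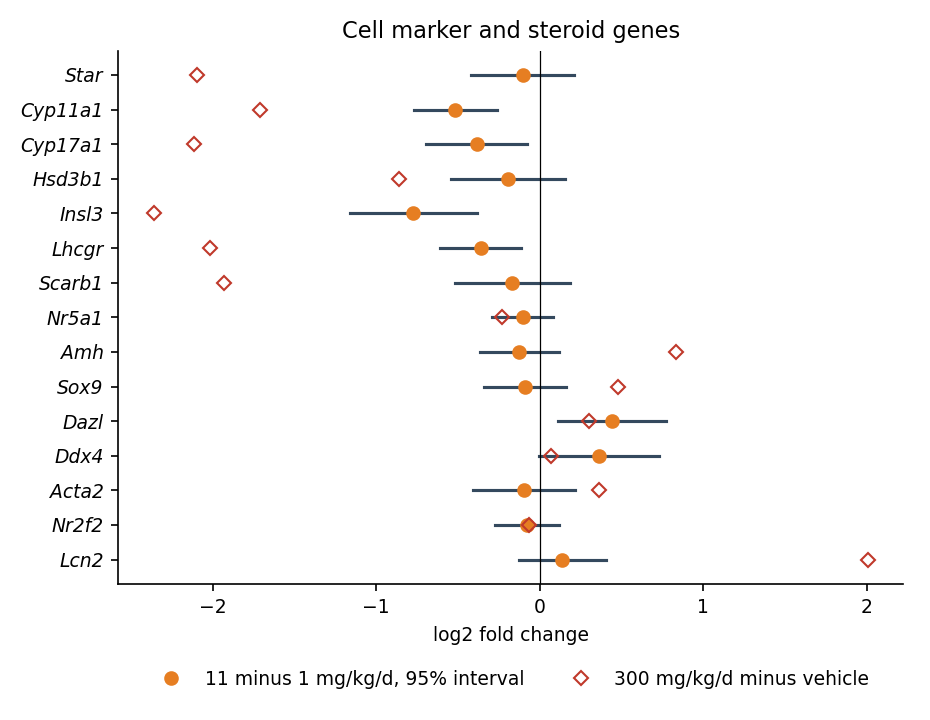
Log2 fold change of marker and steroid genes; filled circles with lines are 11 minus 1 mg/kg/d with its 95% interval, and open diamonds are 300 mg/kg/d minus vehicle. Insl3, Cyp11a1, Cyp17a1 and Lhcgr have intervals below 0, and Dazl has its interval above 0. None of the genes drawn passed the adjusted test between 1 and 11 mg/kg/d. The diamonds of Star, Cyp11a1, Cyp17a1, Hsd3b1, Insl3, Lhcgr and Scarb1 lie lower, beyond the intervals.

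As a list, 18 of 20 Leydig cell genes were lower at 11 mg/kg/d and 2 higher, with a median log2 fold change of -0.18 against -0.002 over all genes tested. No member was called, and 6 of 20 (none in the higher direction) reached an unadjusted p under 0.05. Of all genes tested, 3.04% did so in the lower direction. The summed level was 8137, 6533 and 6273 CPM at 1 mg/kg/d and 6201, 5498 and 4858 CPM at 11 mg/kg/d, so all 3 higher-dose libraries lay below the lowest at 1 mg/kg/d, and vehicle ran from 6968 to 8703 CPM. In whole-testis RNA, fewer Leydig cells and less of these RNAs per cell cannot be told apart. The androgen synthesis list, which shares genes with it, had 13 of 18 lower and a median of -0.16. Inha, the inhibin alpha subunit, chosen after its values were seen, was at 887, 640.3 and 760.1 CPM at 1 mg/kg/d and 593, 535 and 519.9 CPM at 11 mg/kg/d (log2 fold change -0.47, adjusted p = 0.375).

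Of the 7 adrenal cortex genes, 4 passed the filter on low counts, and all 4 were lower (median -0.39). Cyp11b1, the adrenal 11-beta-hydroxylase, chosen after its values were seen, was at 15.8, 7.97 and 6.83 CPM at 1 mg/kg/d and 6.08, 7.35 and 6.86 CPM at 11 mg/kg/d, and the value of replicate 02 stood highest. Its log2 fold change was -0.59 (adjusted p = 0.819), against -4.35 at 300 mg/kg/d, and it was -0.13 without that replicate.

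Germ cell genes ran the other way. Of 27 tested, 23 were higher at 11 mg/kg/d and 4 lower, with a median log2 fold change of 0.25. An unadjusted p under 0.05 was reached by 8, all higher, against 2.97% of all genes tested in that direction. None of the 27 was called. Piwil2, a PIWI protein that binds piRNAs, was at 108, 118 and 88.7 CPM at 1 mg/kg/d and 124, 170.2 and 148 CPM at 11 mg/kg/d (log2 fold change 0.49, adjusted p = 0.435). Dazl, an RNA-binding protein of germ cells, was at 24.7, 15.8 and 20.4 CPM at 1 mg/kg/d and 24.7, 29.7 and 28.4 CPM at 11 mg/kg/d (log2 fold change 0.44, adjusted p = 0.67). Its groups did not overlap but nearly met, at 24.70 and 24.73 CPM. Ddx4, the germ cell RNA helicase, overlapped between the groups at 58.1, 38.5 and 41.2 CPM at 1 mg/kg/d and 47.9, 74.2 and 55.3 CPM at 11 mg/kg/d (0.36). Dnd1 and Dnmt3l, named after their values were seen, had 0.42 and 0.44, both without overlap. The summed level in vehicle was 875 to 1011 CPM, so the 1 mg/kg/d libraries lay below vehicle and the 11 mg/kg/d libraries at or above its low end.

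Endothelial genes were lower in all 15 members, with a median log2 fold change of -0.34. An unadjusted p under 0.05 was reached by 8 of 15, against 3.04% of all genes tested in the lower direction. Tie1, a receptor tyrosine kinase of vessel walls, was at 55.0, 75.6 and 61.8 CPM at 1 mg/kg/d and 48.4, 48.6 and 33.6 CPM at 11 mg/kg/d (log2 fold change -0.56, adjusted p = 0.457). Esam, an endothelial adhesion molecule, had -0.63 (adjusted p = 0.627), and both genes were chosen after their values were seen. The most abundant members, Cdh5 (-0.09) and Eng (-0.22), overlapped between doses, and Cdh5 turned to 0.01 with sample code as a term. In vehicle the summed level was 692 to 725 CPM, close to the 11 mg/kg/d libraries and to 1 mg/kg/d replicate 02, whereas replicates 09 and 10 stood higher.

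Macrophage genes were lower in 14 of 16 (median -0.23) and genes of the major histocompatibility complex in 12 of 17 (median -0.24), with none called. The macrophage sums were 218, 249 and 256 CPM at 1 mg/kg/d and 214, 213 and 179 CPM at 11 mg/kg/d. Peritubular myoid genes had 13 of 14 lower (median -0.10), interstitial progenitor and fibroblast genes 14 of 19 lower (median -0.06) and Sertoli genes 13 of 22 lower (median -0.09), with Amh at -0.12 and Sox9 at -0.09. Red blood cell genes had a median of -0.23, but their sum ran from 2653 CPM in 11 mg/kg/d replicate 17 to 10161 CPM in 1 mg/kg/d replicate 09, and both doses held high and low libraries. Hba-a2, an alpha-globin, had -0.18, which became 0.11 without 1 mg/kg/d replicate 09 and 0.20 without 11 mg/kg/d replicate 17. Liver-type plasma protein genes had 7 of 8 lower (median -0.34) and genes of the mesonephric duct, efferent duct and epithelium 13 of 19 higher (median 0.14). The medians of the myoid, red blood cell and plasma protein lists changed sign under 1, 2 and 1 of the 15 alternatives, and those of the Leydig, androgen, adrenal, germ cell, endothelial and macrophage lists under none.

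In metabolism, 19 of 23 cholesterol synthesis genes were higher at 11 mg/kg/d, with a median of 0.12. Hmgcs1, which makes the substrate of HMG-CoA reductase, had 0.15 and Idi1, an isoprenoid isomerase chosen after its values were seen, 0.33. The sums, 1917, 1882 and 1714 CPM at 1 mg/kg/d and 1932, 1763 and 2249 CPM at 11 mg/kg/d, overlapped. Vehicle sums ran from 2146 to 2468 CPM, a range that only 11 mg/kg/d replicate 17 reached. In the hypoxia and glycolysis list 16 of 17 were lower (median -0.18), among them Eno1 at 689, 677 and 694 CPM at 1 mg/kg/d and 634, 571 and 484 CPM at 11 mg/kg/d (log2 fold change -0.29) and Pgk1 (-0.28, chosen after its values were seen). All 13 protein-coding genes of the mitochondrial genome were higher, by a median of 0.11, with summed levels that overlapped. Their vehicle sums, 55268 to 61038 CPM, lay above those of all 6 libraries compared. No member of these lists was called.

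The antioxidant list held Gsta2, the only called member of any of the 27 lists, and of its 19 members 14 were lower and 5 higher, with a median of -0.05. Medians of the cell cycle (0.03), PPAR target and fatty acid oxidation (-0.05), heat shock and ER stress (0.02), p53 target and cell death (0.03), immediate early (-0.00), fatty acid synthesis (0.02), circadian clock (0.06), interferon response (-0.06), estrogen and androgen receptor (-0.03) and cholesterol uptake, storage and export (-0.06) lists lay near that of all genes. The 27 lists hold 458 tested entries of 438 genes.

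**Figure D4:**
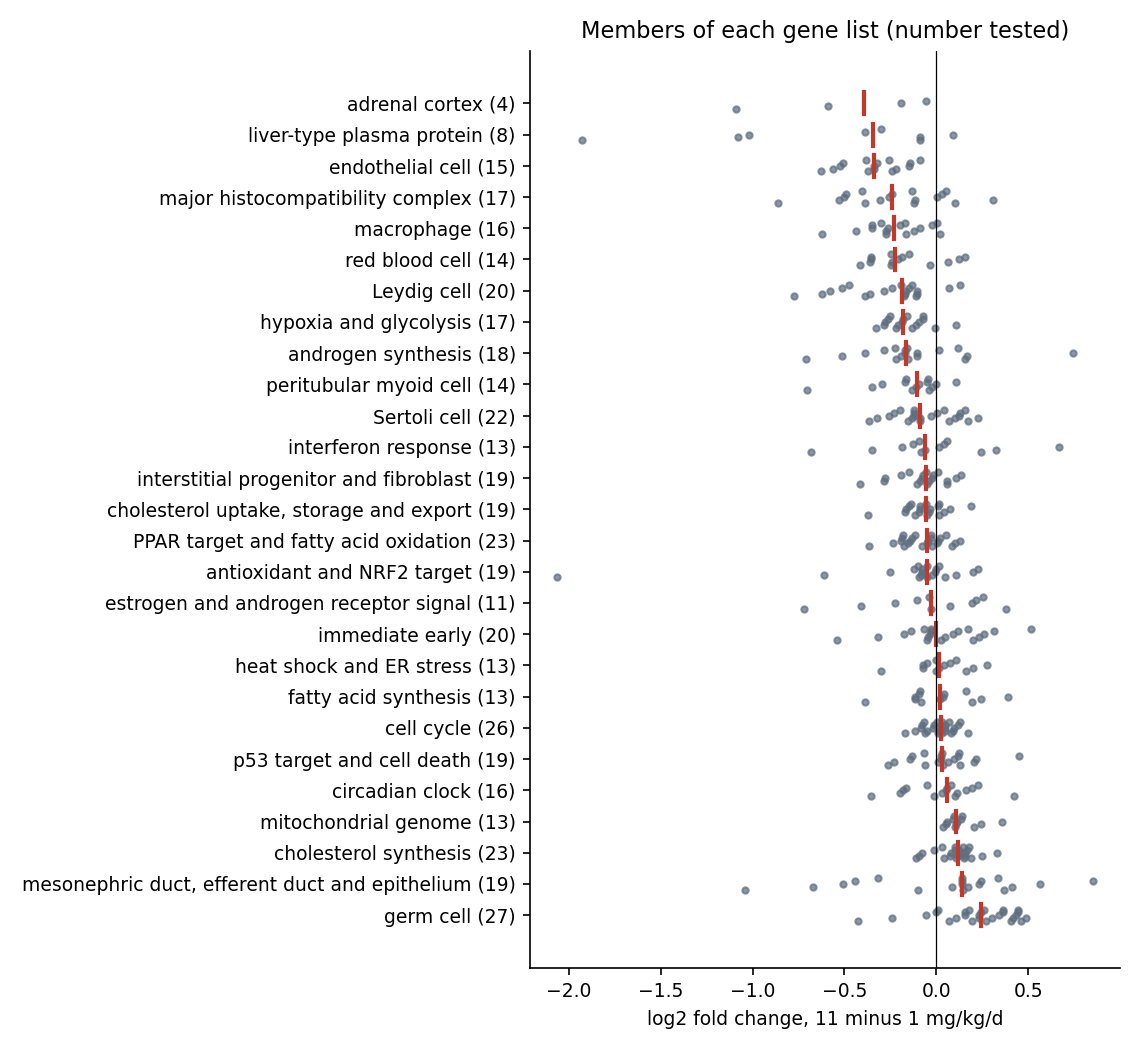
Log2 fold change, 11 minus 1 mg/kg/d, of every tested member of the 27 gene lists, with the number tested in brackets and the list median marked. Germ cell and mitochondrial genome members lie mostly above 0, Leydig, endothelial, macrophage and glycolysis members mostly below, and Gsta2 stands apart in the antioxidant list.

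Genes that respond at the top dose were then read as a group at this low step. Of the 442 genes that fell at 300 mg/kg/d against vehicle, 439 were tested between 1 and 11 mg/kg/d, and 329 of these (74.9%) were lower at 11 mg/kg/d, against 50.6% of the 16707 genes tested in both fits. Their median log2 fold change was -0.12, against -0.002. An unadjusted p under 0.05 in the lower direction was reached by 105 (23.9%), against 3.02% of all, and groups lay apart in that direction for 103 (23.5%), against 4.97%. Among the 122 that fell at least 2-fold at 300 mg/kg/d, 98 (80.3%) were lower and the median was -0.40. With all members of the Leydig, androgen and adrenal lists taken out, an alternative added after the data were seen, 421 of the 439 genes remained. Of these, 312 (74.1%) were lower and the median was -0.11. So few genes were removed that the share could hardly move, and the part of Leydig cell genes in it was not tested.

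Of the genes that rose at the top dose, 370 were tested, and 195 (52.7%) were higher at 11 than at 1 mg/kg/d, against 49.4% of all, with a median of 0.01. An unadjusted p under 0.05 was reached by 23 (6.22%) in the higher direction, against 2.97% of all, and by 5 (1.35%) in the lower, against 3.02%. Groups lay apart in the higher direction for 32 (8.65%), against 6.13%. The number of risers higher at 11 than at 1 mg/kg/d was 301 of 498 (60.4%, median 0.04) without 300 mg/kg/d replicate 06. It was 121 of 237 without 300 mg/kg/d replicate 14, 125 of 239 without replicate 20 and 81 of 157 without vehicle replicate 15. The number of genes that fell and lay lower ran from 190 of 250 (76%), without vehicle replicate 15, to 355 of 492 (72.2%), without 300 mg/kg/d replicate 06. As a share it was highest at 80.1% (262 of 327), without vehicle replicate 08.

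**Figure D5:**
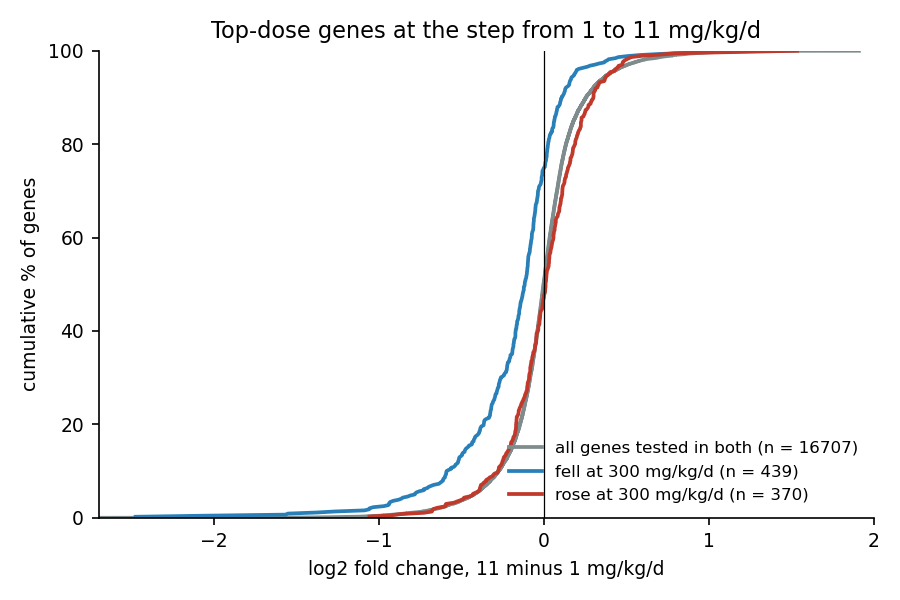
Cumulative percent of genes by log2 fold change, 11 minus 1 mg/kg/d, for all 16707 genes tested in both fits, the 439 that fell and the 370 that rose at 300 mg/kg/d against vehicle. The curve of the genes that fell lies to the left, with 74.9% below 0, and that of the genes that rose crosses 0 near the curve of all genes, with 52.7% above 0 against 49.4%.

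Single genes of that group show the range. Stc2, a secreted glycoprotein, was at 105, 110.1 and 78.0 CPM at 1 mg/kg/d and 71.9, 64.3 and 54.8 CPM at 11 mg/kg/d (log2 fold change -0.62, adjusted p = 0.296, and -1.79 at 300 mg/kg/d). Entpd5, a nucleotidase of the endoplasmic reticulum, had -0.43 against -1.46, also without overlap. Of the top-dose risers, Col2a1, the collagen of cartilage, had 0.37 against 1.62, Stc1 0.30 against 1.98, the lipocalin Lcn2 0.14 against 2.01 and the prohormone carboxypeptidase Cpe -0.18 against 1.45. All 4 overlapped between 1 and 11 mg/kg/d.

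Some genes varied far more between libraries of one dose than between doses. Cdh1, the epithelial cadherin, was at 5.13, 142 and 6.44 CPM at 1 mg/kg/d and 61.9, 58.1 and 2.98 CPM at 11 mg/kg/d, with 1 library of the lower and 2 of the higher dose far above the rest, and its log2 fold change of -0.32 had a 95% interval of -2.49 to 1.85. It became 2.82 without 1 mg/kg/d replicate 09. Zp2, an egg coat protein gene, was at 39.5, 23.4 and 43.8 CPM at 1 mg/kg/d and 42.6, 44.4 and 0.366 CPM at 11 mg/kg/d, with replicate 17 alone near 0. H3f3c, a histone H3 gene, was at 4.0, 3.12 and 49.6 CPM at 1 mg/kg/d and 4.19, 55.0 and 45.9 CPM at 11 mg/kg/d, low in 3 libraries and high in the other 3. Ccl21, a chemokine of lymphatic vessels, was at 13.0, 17.9 and 13.5 CPM at 1 mg/kg/d and 10.9, 10.1 and 0.419 CPM at 11 mg/kg/d, apart by group but with a wide spread at 11 mg/kg/d (adjusted p = 0.852). Acta2, the smooth muscle actin of myoid cells, and Nr2f2, an interstitial cell transcription factor, had -0.09 (-0.41 to 0.22) and -0.08 (-0.27 to 0.12).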

How the data were processed

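RNA-seq libraries of fetal rat testis were made with an NEBNext Ultra II kit, per the labels' protocols, which in its non-directional form does not mark strand. Per the submitters' processing notes, the tools included Trimmomatic 0.36, STAR 2.5.2b and featureCounts of Subread 1.5.2 on build mRatBN7.2. The sources used here do not give the gene models or the strand setting, so overlapping antisense reads cannot be told apart. The deposited values are whole-number counts per gene and were taken as raw.

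The table's 47125 rows hold 30652 identifiers, each taken once. Its 92 ERCC spike-in rows were dropped, which left 30560 genes, 24044 of them with a symbol. TMM factors came from all 17 libraries, so that every dose is on 1 CPM scale. The comparison was fitted to its 6 libraries alone with edgeR 4.0.16 (R 4.3.3) by its quasi-likelihood F test, after filterByExpr by dose, with Benjamini-Hochberg adjustment over the 16823 genes tested and 0.05 as the threshold. A SE is the size of the log2 fold change divided by the root of its F. The 300 mg/kg/d list came from the same test on 3 vehicle and 5 dosed libraries.

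Gene lists are described by counts and medians, with no set test, and 488 of their 516 entries matched a symbol. Genes named are a fixed panel, the called genes, the 10 smallest unadjusted p in each direction without overlap and with a mean of at least 1 CPM, called or leading list members, the 10 most variable genes, the 5 widest gaps between the doses and the 5 smallest adjusted p in each direction at 300 mg/kg/d. Genes named outside that rule are marked as such. Members and lists were chosen with earlier results of these data known. Alternatives used limma 3.58.1, DESeq2 1.42.0, other filters, scalings and sets of libraries, and each library left out in turn. The scripts were tested on simulated counts. Promoters came from RefSeq tables of build GRCr8 and coordinates were not converted between builds.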

Additional observations from a re-analysis of the deposited data

Results flagged for a closer look

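Slc7a8, the amino acid transporter gene, had 1 library far from the other 4 of its group at 300 mg/kg/d, the dose read beside the comparison of 11 with 1 mg/kg/d. That library, 300 mg/kg/d replicate 14, was at 25.3 CPM, and the others were at 16.2, 18.3, 17.5 and 16.0 CPM. Its gap to the nearest library, divided by the group's range, exceeded the critical value of 0.71 for 5 samples. The rule was run on 5 groups, the 5 genes called between 1 and 11 mg/kg/d at that dose, and chance marks about 1 in 20 groups. Groups of 3 libraries, which include both compared doses, were not tested in this way.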

How the results depend on the processing

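Libraries could not be paired by replicate number, because the groups compared share none. Libraries of both doses do share sample codes S447 and S448, and the fit with that code as a term is given here. By edgeR with other scalings (TMM factors from the 6 libraries, DESeq2 size factors), by limma-voom and with a minimum mean of 1 CPM, the calls stayed the same 5 genes, 1 higher and 4 lower. DESeq2's Wald test called 15 higher and 29 lower (1307 genes had no adjusted p), and edgeR with no filter on low counts 26 higher and 50 lower, the 5 genes included in both. Among the genes named above as not passing, both called Cyp11a1, Inha, Mrap, Gsta1 and Stc2. The fit with no filter also called Insl3 and Tie1. Star, Cyp17a1, Lhcgr, Scarb1 and Hsd3b1 were called in neither. The number called lower was 0 with all 17 libraries and 2 with the 9 libraries of vehicle, 1 and 11 mg/kg/d, each with 1 higher. Adding sample code as a term left 0 higher and 0 lower. Leaving out 1 library at a time gave 0 to 2 higher and 0 to 6 lower calls. The cause of these changes was not tested.

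Of 959 values of single genes under the alternatives, 18 changed sign. None was in a called gene, whose groups do not overlap and so could hardly change sign. Cdh1 was at 0.40 by limma-voom, and once sample code was a term Amh was at 0.019, Sox9 at 0.021 and Cdh5 at 0.011. As each library was left out in turn, the log2 fold change ran from -0.86 to 2.82 for Cdh1, -0.207 to 0.004 for Amh, -0.167 to 0.011 for Sox9, -0.24 to 0.031 for Cdh5, -0.239 to 0.14 for Star, -0.284 to 0.073 for Scarb1, -0.339 to 0.011 for Hsd3b1, -0.213 to 0.084 for Acta2, -0.528 to 0.197 for Hba-a2 and -0.745 to 0.289 for Zp2. Of 405 list medians, 13 moved by more than the spread between libraries.

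With the top-dose list taken from a fit of all 17 libraries, 199 of 253 genes that fell were lower at 11 mg/kg/d (median -0.19) and 94 of 172 that rose were higher. Leaving out 1 vehicle or 300 mg/kg/d library at a time, when the list was made, gave 190 to 355 genes and medians of -0.17 to -0.10 for the first. For the second it gave 81 to 301 genes. The values between 1 and 11 mg/kg/d came from all 6 compared libraries each time. These ranges therefore do not show how far the result rests on any 1 of those 6. Depth of 14282274 to 18755376 counts and 3 libraries a group limit what could be called, with a median SE of 0.137 on the log2 scale.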

Other observations

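Cry1, Hspa8 and Mrc1, each among the 2 most abundant members of its gene list, had values apart between the doses. Eno1, Piwil2, Mael and Mrap, leading members named above, also lay apart. They were found by reading the leading members of all 27 lists. Of all genes tested, 6.1% lay apart in the higher and 5.01% in the lower direction. A few apart among that many say nothing particular about these genes. Cry1, a repressor of the circadian clock, was at 82.5, 86.9 and 77.6 CPM at 1 mg/kg/d and 96.8, 95.5 and 96.9 CPM at 11 mg/kg/d, a log2 fold change of 0.23 with a 95% interval of 0.06 to 0.40 (adjusted p = 0.68 by edgeR). Hspa8, the constitutive heat shock chaperone, was at 1069, 1047 and 1210.0 CPM at 1 mg/kg/d and 1234, 1235 and 1346 CPM at 11 mg/kg/d (0.20, 95% interval -0.01 to 0.40). Mrc1, the mannose receptor of tissue macrophages, was at 32.3, 31.7 and 31.8 CPM at 1 mg/kg/d and 29.8, 31.3 and 27.0 CPM at 11 mg/kg/d (-0.12, 95% interval -0.35 to 0.11). Cry1, Hspa8 and Mrc1 were called in none of the 15 alternatives run.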
